A study of Caenorhabditis elegans with 3 samples.

Results

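Ubiquitin enzymes, cullins, RBX proteins and Skp1-related proteins are encoded in Caenorhabditis elegans by genes whose names start with uba, ubc, cul, rbx or skr. All protein-coding genes with such a symbol in the WBcel235 annotation were taken, which gave 52 of 19985 protein-coding genes. They comprised 3 uba, 21 ubc, 6 cul, 2 rbx and 20 skr genes. The data are a chromatin immunoprecipitation and sequencing (ChIP-seq) experiment on DPL-1, the worm's DP protein, which binds DNA as the partner of E2F transcription factors. Whole young adult hermaphrodites of strain YL507 were used in 3 biological replicates of 1 group. Per the labels, YL507 is a transgenic line that stably expresses DPL-1 with GFP and FLAG at its C-terminus, from an insertion that targets dpl-1, and sonicated chromatin was recovered with an anti-GFP antibody. The labels do not say whether untagged DPL-1 is still made in this strain. No sample without the tag and no input sample was analysed here, so no value could be set against a background measured in the same way. Whole animals contain the germline and all somatic tissues, and a peak does not tell in which cells DPL-1 was bound.

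Ubiquitin is attached to proteins through a cascade of enzymes. An E1 enzyme activates it, an E2 conjugating enzyme carries it, and an E3 ligase selects the substrate, which is then often degraded by the proteasome. SUMO, NEDD8 and UFM1 are ubiquitin-like modifiers that use E1 and E2 enzymes of their own. Cullin-RING ligases are modular E3 enzymes in which a cullin scaffold binds an RBX RING subunit that docks the E2, and an adaptor that brings in the substrate receptor. In the SCF ligases the adaptor is a Skp1 protein, a family with a single gene in humans and many skr copies in the worm. These ligases remove cyclins, kinase inhibitors and replication licensing factors, while E2F and DP proteins control the transcription of cell cycle genes.

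A peak was assigned to a gene when its summit, the position of highest signal within the peak, lay within 500 bp of the gene's annotated 5' end. The authors' optimal list, thresholded by irreproducible discovery rate (IDR), held 3295 peaks on build ce11. The 101 bp around 6 member summits are printed here from the WBcel235 genome, 5′ to 3′ along the strand of the gene. They were chosen to show 3 of the 4 strongest E2 peaks, and an E1 peak and 2 cullin peaks that held a motif. Capitals mark matches on either strand to an E2F-like motif (TTCCCGC or TTCGCGC or TTGCCGC or TTGGCGC) or to the CHR element (TTCGAA or TTTGAA), the site of LIN-54, which is a member of the DREAM complex like DPL-1. The sequence for ubc-7 is chrIII:9631435-9631535 on the minus strand. That for ubc-18 is chrIII:7068787-7068887 on the minus strand. That for ubc-9 is chrIV:4650752-4650852 on the plus strand. The uba-1 sequence is chrIV:9995146-9995246 on the minus strand. The cul-3 sequence is chrV:177022-177122 on the plus strand, and that for cul-4 is chrII:7301821-7301921 on the plus strand.
ubc-7: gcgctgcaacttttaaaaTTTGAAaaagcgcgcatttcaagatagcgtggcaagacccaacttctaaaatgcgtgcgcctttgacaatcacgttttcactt
ubc-18: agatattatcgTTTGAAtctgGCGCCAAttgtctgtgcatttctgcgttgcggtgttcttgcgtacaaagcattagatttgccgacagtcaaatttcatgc
ubc-9: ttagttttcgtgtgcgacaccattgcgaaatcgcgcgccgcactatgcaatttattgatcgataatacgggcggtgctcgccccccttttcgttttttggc
uba-1: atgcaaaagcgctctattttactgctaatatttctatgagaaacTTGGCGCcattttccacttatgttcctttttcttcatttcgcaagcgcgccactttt
cul-3: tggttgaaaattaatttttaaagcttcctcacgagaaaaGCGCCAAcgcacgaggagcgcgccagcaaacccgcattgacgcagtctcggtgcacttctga
cul-4: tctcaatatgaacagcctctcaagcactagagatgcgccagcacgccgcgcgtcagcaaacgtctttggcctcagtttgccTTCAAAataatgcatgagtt
In these sequences the first base of the E2F-like motif lay 6 bp upstream of the summit at uba-1, 29 bp upstream at ubc-18 and 11 bp upstream at cul-3. That of the CHR element lay 32 bp upstream of the summit at ubc-7, 39 bp upstream at ubc-18 and 31 bp downstream at cul-4. In the ubc-18 window, which held both, the matches did not overlap, and the ubc-9 window held neither.

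Within 50 bp of the summit, 4 of the 14 member peaks held the E2F-like motif (28.6%: cul-3, uba-1, ubc-12 and ubc-18), against 17.9% of all 1833 IDR peaks at protein-coding 5' ends. The CHR element was found at 5 of 14 (35.7%: cul-4, rbx-1, uba-2, ubc-7 and ubc-18), against 31.2%. At 6 of the 14 summits neither was found. Median GC content in the same windows was 49.0% at the members and 45.5% at all these peaks, and its part in the motif counts was not tested. A match is a stretch of letters and does not show that a protein was bound there.

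A DPL-1 peak was present at 14 of the 52 genes (26.9%, exact 95% interval 15.6 to 41.0%), against 11.8% of all protein-coding genes. All 14 were among the 32 uba, ubc, cul and rbx genes, of which they made up 43.8% (26.4 to 62.3%). No peak was found at any of the 20 skr genes (exact 95% interval 0 to 16.8%), an interval that includes the 11.8% of all genes. By the share that 3 genes would make, a count of 0 of 20 allows up to 15%. The E1 and E2 genes had a peak in 10 of 24 cases (41.7%, 22.1 to 63.4%), made up of 2 of the 3 uba genes and 8 of the 21 ubc genes. The cullin and RBX genes had one in 4 of 8 cases (50%, 15.7 to 84.3%), namely 3 of the 6 cul genes and 1 of the 2 rbx genes. These intervals cover the counting of genes only. The intervals of the E1 and E2 genes and of the cullin and RBX genes overlapped widely.

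The same count was made with the 3295 strongest peaks of each replicate's own relaxed list, a long list of peaks and background regions made before the IDR step. Of the 52 genes, 12, 15 and 12 had a peak in the top lists of replicates 1, 2 and 3, against 9.94%, 11.7% and 10.3% of all protein-coding genes. The members' share was 25 ± 3.33% (SD, n = 3 replicates) and that of all genes was 10.7 ± 0.920% (SD, n = 3). Among the uba, ubc, cul and rbx genes the share was 39.6 ± 6.51% (SD, n = 3), from 12, 15 and 11 genes. Among the skr genes it was 1.67 ± 2.89% (SD, n = 3), from 0, 0 and 1 gene. In each of the 3 replicates the members' share stood above that of all genes, while the skr share stood below it. These SDs compare lists for the same genes and do not cover the counting of genes.

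The count depended on the width of the window. With a 250 bp window, 4 members kept a peak (cul-1, cul-4, ubc-9 and ubc-19), which is 7.69% of them, against 7.71% of all genes. With 300 bp it was 8 members or 15.4%, against 9.07% of all genes, and with 400 bp the 14 members were 26.9%, against 10.6%. The 300 and 400 bp windows were chosen after the positions of the summits had been seen. Among the 32 uba, ubc, cul and rbx genes alone, the 250 bp window left 4 with a peak (12.5%), made up of 2 of 24 E1 and E2 genes (8.33%) and 2 of 8 cullin and RBX genes (25%). Of the 14 member peaks, 10 were thus gained between 250 and 400 bp.

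**Figure D1:**
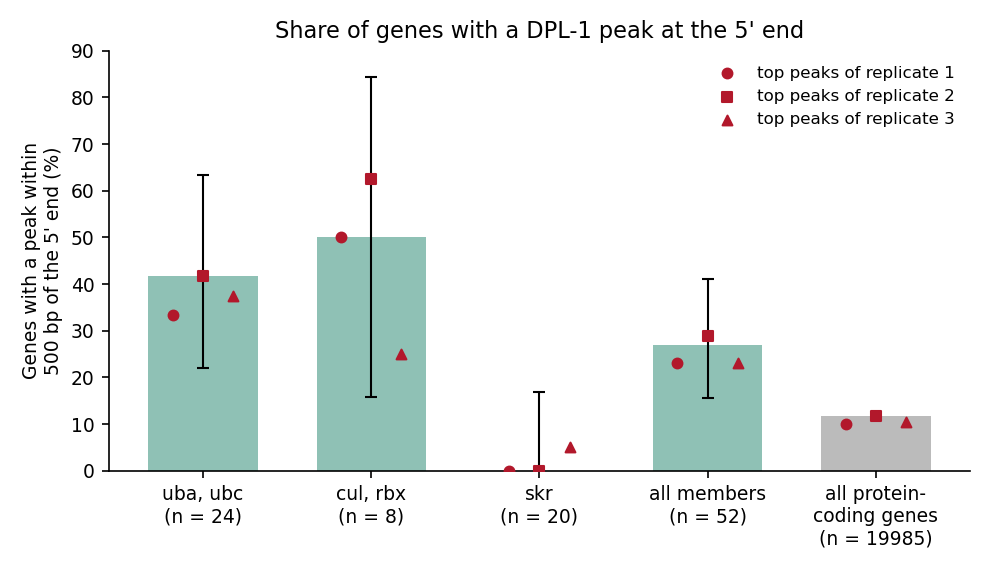
Share of genes (%) with a DPL-1 peak summit within 500 bp of the 5' end, for the E1 and E2, cullin and RBX and skr genes, all 52 members and all protein-coding genes. Bars give the IDR list with exact 95% intervals on the members, and points give the top peaks of each replicate; the skr bar is at 0, while the bars of the E1 and E2 genes (41.7%) and the cullin and RBX genes (50%) stand above the 11.8% of all genes.

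At the top of the cascade, uba-1 encodes the E1 of ubiquitin itself. Its peak (chrIV:9995105-9995273) had its summit 251 bp upstream and a signal of 104.4. Signal is the authors' measure of peak strength, whose median was 98.6 over the 14 members and 101.6 over the strongest peaks of all 2351 genes with a peak. The peak ranked 1183 of 3295 in the IDR list and 1750, 1307 and 768 in the relaxed lists of replicates 1, 2 and 3, so it was inside the top 3295 in every replicate. The peak at uba-2, the catalytic subunit of the SUMO E1, was similar in strength (chrI:12741214-12741370, 294 bp upstream, signal 98.6, rank 1292). It ranked 725, 1123 and 7183 in replicates 1, 2 and 3, so replicate 3 had it far below its top list. For uba-5, the UFM1 E1, no IDR peak lay in the window. The nearest candidate was a replicate 1 peak of rank 2046 whose summit lay 486 bp downstream, inside the gene, and the other 2 replicates had no summit in the window.

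Among the E2 genes the 4 strongest peaks of the whole set were found. The strongest was at ubc-7, a homologue of the Ubc7 E2 enzymes of endoplasmic reticulum associated degradation (chrIII:9631335-9631602, 318 bp upstream, signal 369.2, rank 132 of the IDR list). It ranked 244, 116 and 132 in replicates 1, 2 and 3, near the top of every list. At ubc-18, a homologue of human UBE2L3, the peak (chrIII:7068749-7068923, 267 bp upstream, signal 194.7, rank 436) ranked 388, 456 and 1061. At ubc-6, which encodes an E2 related to the membrane-bound Ubc6 of yeast, the peak (chrII:7478733-7478975, 326 bp upstream, signal 194.7, rank 437) ranked 254, 482 and 950. At ubc-9, the E2 of SUMO, it lay 242 bp upstream (chrIV:4650649-4650917, signal 191.9, rank 452) and ranked 296, 498 and 693. These 4 peaks were in the top list of every replicate, and replicate 3 was the low one for ubc-6, ubc-9 and ubc-18.

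The other 4 E2 peaks were weaker and were each missed by the top list of 1 replicate. At ubc-12, the NEDD8 E2, which prepares the modifier that activates cullins, the peak (chrI:11911039-11911131, 260 bp upstream, signal 98.6, rank 1293) ranked 6385, 1115 and 1917 in replicates 1, 2 and 3. At ubc-25, an E2 of the UBE2Q type, it lay 301 bp upstream (chrI:10562624-10562701, signal 73.2, rank 1947) and ranked 8950, 1589 and 1244. At ubc-3, a homologue of the SCF-associated E2 Cdc34, it lay 309 bp upstream (chrI:1698017-1698095, signal 57.4, rank 2569) and ranked 6246, 2542 and 1425. It was the weakest peak of the set. In these 3 cases replicate 1 was the low one. At ubc-19 the peak lay 124 bp upstream (chrV:18689734-18690037, signal 61.4, rank 2383) and ranked 1953, 2933 and 5019, with replicate 3 low.

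Of the 13 E2 genes without an IDR peak, 11 had a weaker relaxed summit in at least 1 replicate and 2 had none. Only ubc-16 entered a top list, at rank 1976 of replicate 3, and the other 2 replicates had no summit in its window. At ubc-8 summits were present in all 3 replicates at ranks of 4489, 5747 and 8181. These genes, ubc-16 and ubc-8, were picked out after their values had been seen.

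Of the 6 cullin scaffold genes 3 had a peak. At cul-4, whose ligase with DDB-1 and CDT-2 degrades the replication licensing factor CDT-1, the peak (chrII:7301779-7301936, 230 bp upstream, signal 140.9, rank 776) ranked 1066, 735 and 1594 in replicates 1, 2 and 3. It was the only cullin peak found in all 3 top lists. At cul-3, which works with BTB-domain adaptors such as MEL-26, the peak (chrV:176920-177223, 345 bp upstream, signal 98.6, rank 1294) ranked 1165, 1072 and 8688, with replicate 3 low. At cul-1, the scaffold of the SCF ligases, it lay 104 bp upstream (chrIII:10470981-10471284, signal 64.3, rank 2254) and ranked 3123, 3584 and 2413. All 3 ranks of cul-1 were near the 3295 limit, and in replicate 2 it fell outside.

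The other 3 cullins had no IDR peak. At cul-2, the scaffold used with elongins and the VHL receptor, weak summits ranked 23958, 3155 and 12094 in replicates 1, 2 and 3, so that replicate 2 alone had it in its top list. At cul-5 replicate 1 had no summit, and replicates 2 and 3 had summits of rank 23757 and 18832. At cul-6, a cullin of the worm's response to intracellular pathogens and the closest relative of cul-1 (49.9% protein identity), summits ranked 25805 and 29006 in replicates 1 and 2 and were absent in replicate 3. Of the 2 RING subunit genes 1 had a peak. The peak at rbx-1, the partner of most cullins, lay 379 bp upstream, the farthest of the set (chrV:9690749-9691052, signal 90.8, rank 1458), and ranked 1877, 1129 and 4062. At rbx-2, the partner of CUL-5, no IDR peak was found, and summits ranked 2223 and 11068 in replicates 2 and 3 and were absent in replicate 1. In all, 4, 5 and 2 of the 8 cullin and RBX genes were in the top lists of replicates 1, 2 and 3 (45.8 ± 19.1%, SD, n = 3). In percent the spread was wider than that of the E1 and E2 genes, of which 8, 10 and 9 of 24 were in the top lists (37.5 ± 4.17%, SD, n = 3). Counted in genes, the SDs were 1.53 and 1.0, and 1 gene weighs more in a group of 8 than of 24.

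**Figure D2:**
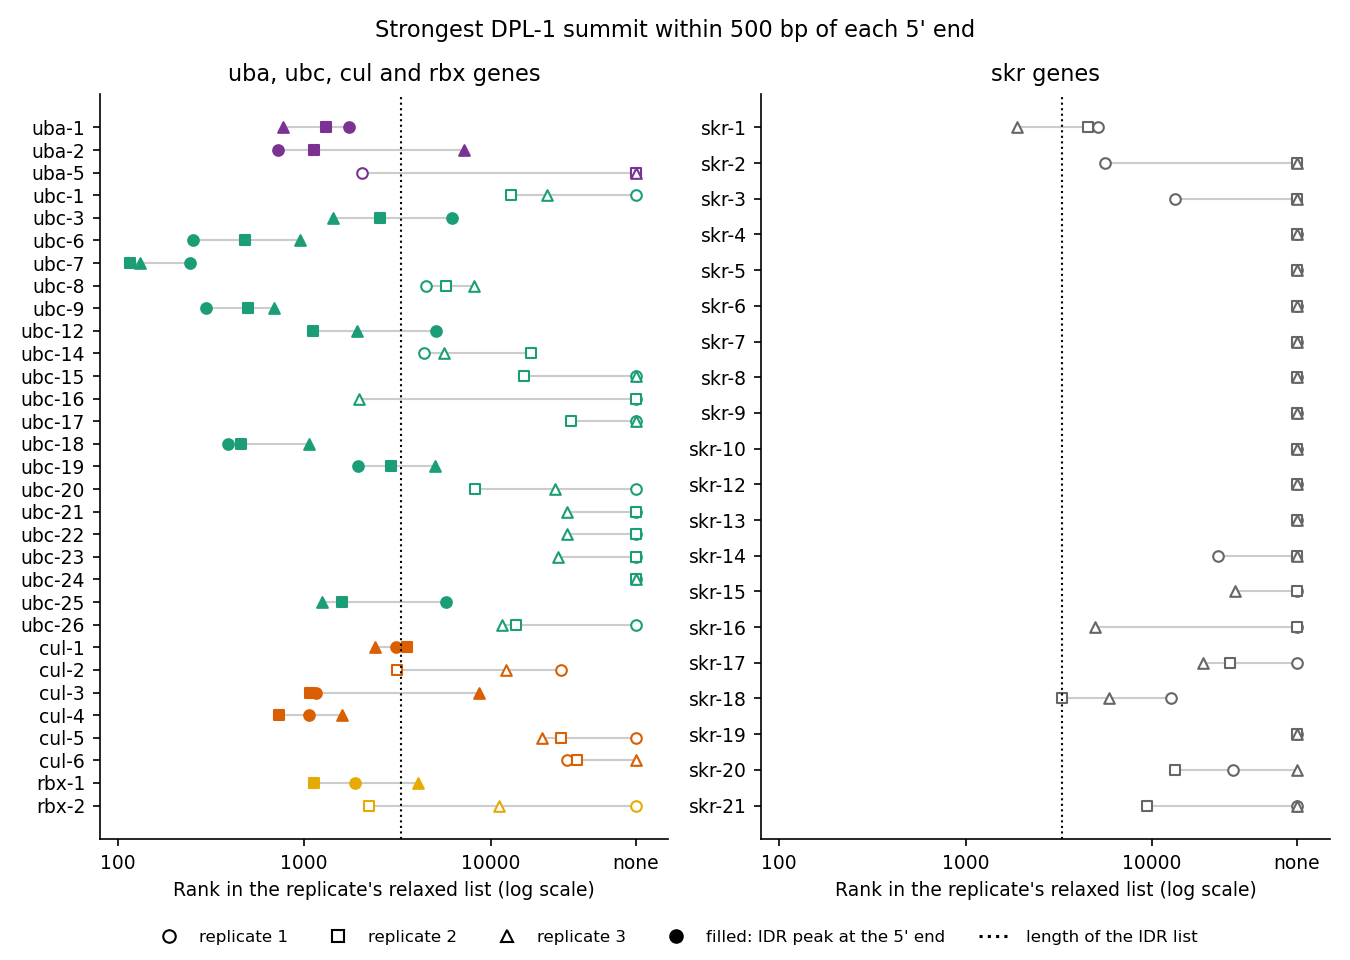
Rank (log scale) of the strongest summit within 500 bp of each member's 5' end in the relaxed lists of replicates 1, 2 and 3, with "none" where a list had no summit there and a dotted line at rank 3295. Filled symbols mark genes with an IDR peak; ubc-7 stands at the strong end at ranks of 116 to 244, and 10 of the 20 skr genes are at "none" in all 3 replicates. Of the ubc genes, 1 is not shown. For ubc-12 and ubc-25 the strongest replicate 1 summit in the window was not the one matched to the IDR peak.

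The skr genes also had fewer weak summits than the other 4 families, while their share without any was close to that of all genes. No replicate had a relaxed summit within 500 bp for 10 of the 20 skr genes (50%), against 2 of the 32 other members (6.25%) and 47.0% of all protein-coding genes. A relaxed summit in all 3 replicates was found for 2 skr genes (10%), against 17 of the 32 other members (53.1%) and 18.8% of all genes. All 6 skr genes with under 90% of unique sequence around the 5' end, counted as 30-base stretches that occur once in the genome, were among the 10 without a summit. Of the 14 other skr genes 4 had none (28.6%) and 2 had one in every replicate (14.3%). The split by unique sequence was made after these values had been seen.

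skr-1 and skr-2, neighbours that encode proteins 82.8% identical to each other, are the worm genes closest to Skp1 of other species. At skr-1 the strongest summits ranked 5142, 4540 and 1888 in replicates 1, 2 and 3, so the top list of replicate 3 alone held it. Those of replicates 2 and 3 lay 271 and 262 bp upstream, and that of replicate 1 lay 220 bp downstream. In the list made from the pooled alignments the peak at skr-1 ranked 3388, just below the 3295 peaks that formed the IDR list. At skr-2 replicate 1 alone had a summit, of rank 5598. The other skr gene with a summit in every replicate was skr-18, at ranks of 12596, 3297 and 5884, and it was picked out after its values had been seen.

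The skr genes in tandem clusters, defined by distance alone, were set against the rest. Neighbouring skr genes no more than 20 kb apart formed 3 clusters besides the skr-1 and skr-2 pair, with 9 genes in all. These are skr-8, skr-9, skr-12 and skr-13 on chromosome IV, skr-7 and skr-14 on chromosome V, and skr-19, skr-20 and skr-21 on the X chromosome. Not all are near-copies, since those on the X chromosome were at most 35.5% identical in protein to any family member. None of the 9 tandem genes had an IDR peak or a peak in any replicate's top list, a count that allows up to 33.3%. None of the other 11 skr genes had an IDR peak (up to 27.3%), and skr-1 was in 1 top list. A relaxed summit was absent from all 3 replicates for 6 of the 9 tandem genes (66.7%) and 4 of the 11 others (36.4%), against 47.0% of all genes. Among the genes with at least 90% of unique sequence it was absent for 2 of 5 tandem genes (40%) and 2 of 9 others (22.2%). With 0 peaks in both classes, no difference between tandem and other skr genes was detectable in the IDR list. Over all 5 families, 0 of the 15 members in tandem clusters, skr-1 and skr-2 included, had an IDR peak, against 14 of the 37 members outside clusters (37.8%). Of those 15 genes 11 are skr genes, so clustering and family cannot be told apart here.

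Near-identical copies can lose reads when a read fits several places, and the sources used here do not say how such reads were handled. The share of 30-base stretches that occur once in the genome was therefore counted around each 5' end, over the 500 bp on both sides. It was 45.5% for skr-8, 46.7% for skr-9, 54.3% for skr-12 and 67.9% for skr-13, the 4 genes of the chromosome IV cluster. It was 87.4% for skr-10 and 88.0% for skr-4. For these 6 genes, which are at least 89.3% identical in protein to another family member, the lack of a peak or of a weaker summit is uncertain. The other 14 skr genes had 96.2% or more of unique stretches and also had no IDR peak. Among all genes 12.5% were below 90%. The peak at ubc-6 was called although 79.6% of its stretches were unique.

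Protein likeness was high in the skr family. Of its 20 proteins, 11 were at least 80% identical to another, led by skr-12 and skr-13 (97.1%), skr-8 and skr-9 (96.4%), and skr-8 and skr-10 (93.8%). The other 9 reached at most 67.2%. Identity to skr-1, leaving skr-2 aside, ran between 25.6% and 55.9%. Neither the 11 near-copies nor the 9 diverged genes had an IDR peak. In the ubc family the identity to the closest relative was 26.3 to 47.6% (median 36.4%) for the 8 genes with a peak and 21.1 to 56.8% (median 39.1%) for the 13 without, ranges that overlapped.

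**Figure D3:**
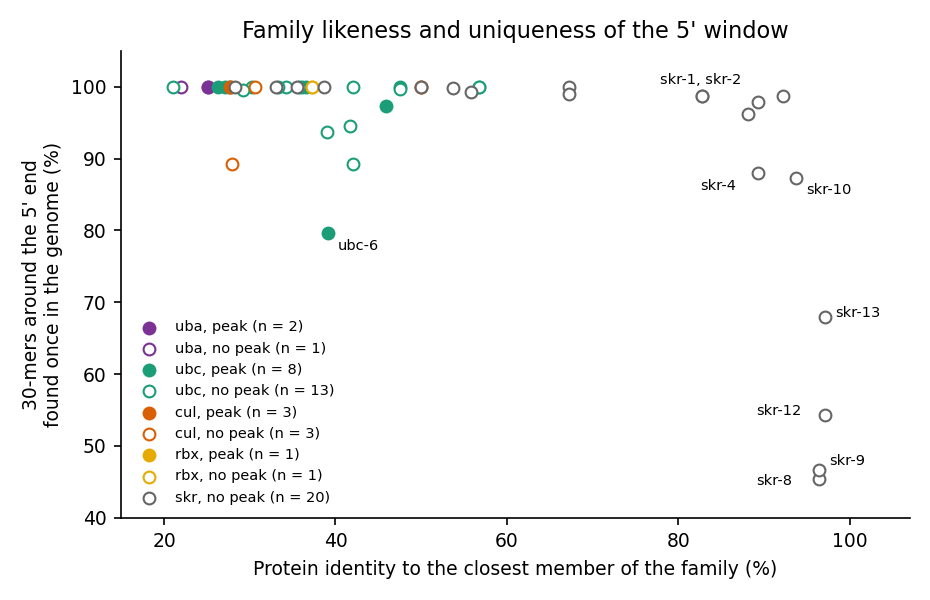
For each of the 52 members, protein identity (%) to the closest member of its own family against the share (%) of 30-base stretches around the 5' end that occur once in the genome. Filled points have an IDR peak. The chromosome IV tandem copies lie at the lower right, at 45.5% to 67.9% unique, but most skr genes lie at 96.2% or more and are also open circles.

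All 14 member summits lay upstream of the annotated 5' end, in sequence with no annotated gene, against 90.5% upstream among all called genes. The members' distance had a median of 280.5 bp (lowest 104, highest 379, quartiles 244 and 316), against a median of 176.0 bp (quartiles 95 and 278) for all genes with a peak. More than 200 bp upstream lay 12 of 14 member summits (85.7%), against 43.9%, and the other 2 were cul-1 and ubc-19. The distance was not used to choose the genes, but it was compared only as a description, since the 14 genes come from 1 set of peaks. In strength the members were ordinary. Of their 14 peaks 10 were in the stronger 50% of the IDR list (71.4%), against 60.3% of the peaks of all called genes, and 5 were in the strongest 25% (35.7%), against 35.6%.

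**Figure D4:**
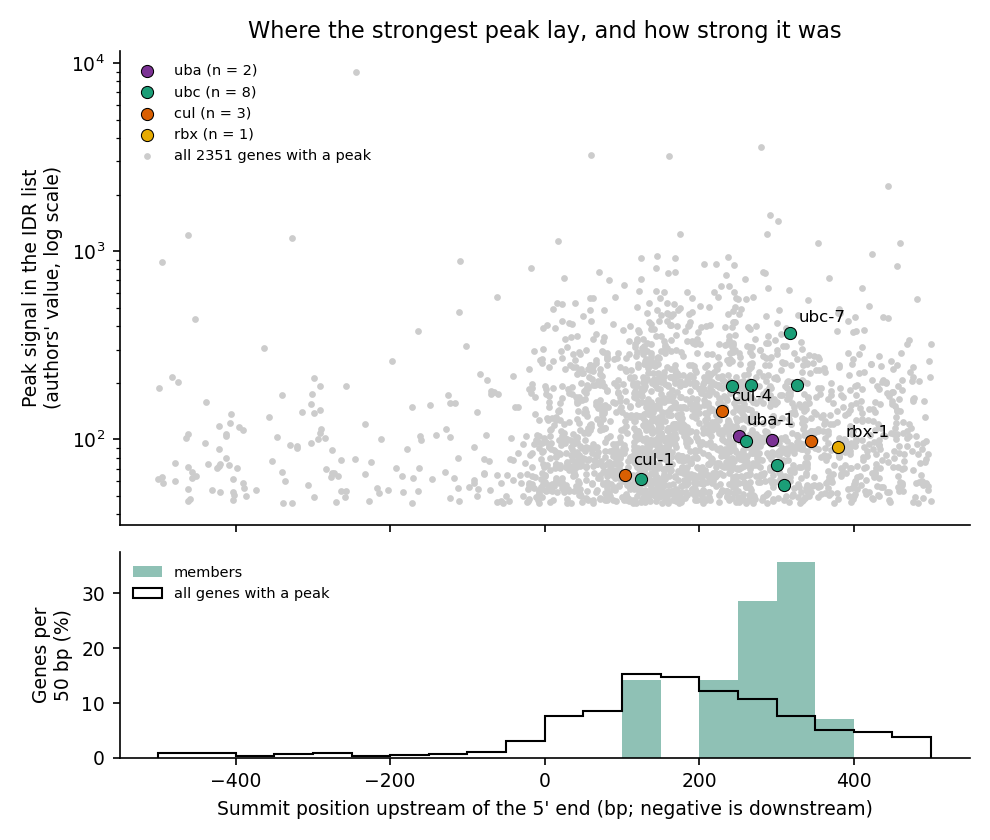
Above, signal of the strongest IDR peak (authors' value, log scale) against the position of its summit (bp upstream of the 5' end) for the members, coloured by family, and for all 2351 genes with a peak in grey. Below, the share of genes (%) in each 50 bp step for members (filled) and all genes with a peak (line); the members centre on 280.5 bp, and the line on 176.0 bp.

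The peak also served a second gene at 5 of the 14 members (35.7%), against 46.3% of all called genes. In all 5 cases the neighbour was on the opposite strand and its 5' end was nearer to the summit. The SUMO E1 gene uba-2 shared its peak with vps-25, an ESCRT-II subunit gene, whose 5' end was 19 bp from the summit. The ubc-12 peak lay 39 bp from rbm-3.2, and that of ubc-19 103 bp from Y69H2.7. The ubc-18 peak lay 226 bp from R01H2.8, and that of ubc-6 324 bp from aka-1, a difference of 2 bp from its distance to ubc-6. The other 9 peaks had no second protein-coding 5' end in the window, so that 9 members (64.3%) were the gene nearest to their peak, against 76.7% of all called genes. Which gene a shared peak acts on cannot be told from these data.

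Summits were also matched between lists within 100 bp. The member peaks were found in 11, 13 and 10 of 14 cases in the top lists of replicates 1, 2 and 3. In all 3 lists 6 of the 14 were found (42.9%), against 49.4% of the strongest peaks of all called genes. These 6 were the peaks at uba-1, ubc-6, ubc-7, ubc-9, ubc-18 and cul-4, and the other 8 were each in 2 lists. Of the 1803 strongest peaks of all called genes, 484 were in 2 lists, 384 in 1 and 44 in none. The 3295 IDR peaks are exactly the 3295 strongest peaks of the pooled list, and 820 of them were matched in the top list of 1 replicate only. Replicate 3 alone missed the peaks at cul-3, rbx-1, uba-2 and ubc-19, replicate 1 those at ubc-3, ubc-12 and ubc-25, and replicate 2 that at cul-1. The labels list another protocol document for replicate 3 than for replicates 1 and 2, and its part in these differences was not tested.

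Some members without a peak of their own lie behind other genes on the same strand, with gaps of at most 500 bp, an arrangement that worm operons share. Among 7 such members, the first gene of the run had an IDR peak in 3 cases (42.9%), against 23.1% of such genes in the genome. The peak ahead of skr-17 belonged to spdl-1, the worm Spindly gene (signal 71.2, 266 bp upstream), although snpc-1.1 was nearer to its summit. That ahead of skr-18 lay 341 bp upstream of F56B3.11 (signal 80.8) and nearer to ech-5. That ahead of ubc-14 lay 254 bp upstream of nyn-2 (signal 47.5) and nearer to cyn-15. These genes were picked out after their values had been seen, and whether they are transcribed together was not tested.

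The X chromosome held 7 members (ubc-17, ubc-21, ubc-22, ubc-23, skr-19, skr-20 and skr-21). None had an IDR peak or a peak in any top list, a count that allows up to 42.9%, against 6.04% of all genes on X. The 4 ubc genes among them make up 4 of the 13 E2 genes without a peak.

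Other genes of the pathway were counted from 5 lists, of which 68 of 72 symbols matched a protein-coding gene. Together 21 of the 68 had an IDR peak (30.9%), against the 11.8% of all genes. The modifiers themselves had one in 7 of 9 cases (77.8%), and 7, 6 and 5 had one in the top lists of replicates 1, 2 and 3. The strongest was at smo-1, the SUMO gene (signal 261.7, 497 bp upstream), ahead of ubl-1 (226.6, 211 bp) and ubq-2 (159.5, 491 bp, with frg-1 nearer), which encode ubiquitin-like and ubiquitin proteins fused to ribosomal proteins. The smo-1 and ubq-2 summits lay near the edge of the window, and those at ubq-1 and lgg-2 lay downstream of the 5' end. The other modifier summits lay 211 bp (ubl-1), 216 bp (ubl-5) and 247 bp (lgg-1) upstream. The lgg-1 peak was weak (signal 46.5, rank 3229 of the IDR list). The shares of the pathway lists were not recounted with a narrower window. Other E1 and E2 genes had a peak in 3 of 10 cases (30%), and 1, 3 and 2 had one in the top lists of replicates 1, 2 and 3. The signals were 96.2 at uev-1, an E2 variant, 64.5 at atg-7, an E1 of autophagy, and 63.8 at rfl-1, a subunit of the NEDD8 E1.

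Among cullin adaptors and substrate receptors 6 of 22 had a peak (27.3%), against the 11.8% of all genes, and 3, 6 and 5 had one in the top lists of replicates 1, 2 and 3. These were led by elb-1, elongin B (signal 254.5), wdr-23, a CUL-4 receptor for the transcription factor SKN-1 (187.3), and skpt-1, an F-box gene related to Skp2 (184.3). In the list of neddylation and COP9 signalosome genes 1 of 9 had a peak (11.1%), close to the share of all genes, at dcn-1, which promotes cullin neddylation (signal 87.3), and 1, 1 and 0 had one in the top lists of replicates 1, 2 and 3. Other E3 ligases had a peak in 4 of 18 cases (22.2%), and 7, 4 and 3 had one in the top lists of replicates 1, 2 and 3. The HECT ligase gene wwp-1 had the strongest (462.6, rank 86 of the IDR list), above that of any member, followed by pdr-1, the worm Parkin (70.05), and hecd-1 (51.7).

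Read along each cascade, peaks covered several steps but not all. For SUMO, the modifier smo-1, the E1 subunit uba-2 and the E2 ubc-9 had a peak, and the second E1 subunit aos-1 did not. The smo-1 summit lay at the edge of the window, and uba-2 lost its peak when each peak served its nearest gene only. For ubiquitin, ubq-1, ubq-2 and uba-1 had a peak. The ubq-1 summit lay 389 bp downstream of the 5' end, and the ubq-2 summit lay 491 bp upstream and nearer to frg-1. Of the 21 ubc genes 8 had a peak, the SUMO and NEDD8 enzymes included, and 13 did not, nor did let-70, a ubiquitin E2 gene picked out after its value had been seen. For NEDD8, ubc-12 and rfl-1 had one, while ned-8 and the other E1 subunit gene ula-1 did not. The rfl-1 summit lay downstream of the 5' end. It ranked 2252 and 8435 in replicates 2 and 3 and was not matched in replicate 1. The ubc-12 gene lost its peak when each peak served its nearest gene only. For UFM1, none of ufm-1, uba-5 and the E2 gene ufc-1 had an IDR peak at the start of the gene record, and uba-5 had one when the 5' end of any transcript was used.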

How the data were processed

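Only peak lists on build ce11 were used, and the lists on ce10 were not used here. The deposited signal value of each peak (column 7 of the narrowPeak layout) is the authors' own. It was used to rank peaks within a list and to describe peak strength within the IDR list. Per the text deposited with each sample, the relaxed lists derive from each replicate's alignments and 1 further file, and the IDR list from the replicate and pooled lists. The aligner and the caller were not given in the sources used here. Read numbers are not given either, so the depth is unknown. On ce11 the relaxed lists held 28383 peaks for replicate 1 and 30000 each for replicates 2 and 3 and the pooled alignments.

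Genes came from Ensembl release 115 (WBcel235), with the 5' end at the start of the gene record, which in worms is often a trans-splice site. Each peak was given to every protein-coding gene within 500 bp of its summit, and the strongest peak of a gene was kept. Summits matched between lists within 100 bp. Coordinates are 1-based. Proteins were translated from the annotated coding sequence and aligned globally with BLOSUM62 (Biopython 1.88, gap costs 11 and 1), counting identities over the shorter protein. With 1 group and no control, no test between groups was possible, and counts are set beside the share over all genes. Intervals are exact binomial (SciPy 1.17.1). A count of 0 is given the share that 3 genes would make. All members with an IDR peak are named, as are all uba, cul and rbx genes, skr-1, skr-2, the 3 strongest genes of each pathway list and neighbours of member peaks. The genes, the lists and the motifs were chosen with earlier results of these data known. The gene assignment was tested on simulated peaks. The alternatives were other windows, other definitions of the 5' end and of peaks, and leaving out 1 replicate when IDR peaks were matched to the top lists. Of the ubc genes, 1 is included in the counts but is not reported by name here.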

Additional observations from a re-analysis of the deposited data

How the results depend on the processing

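Recomputed under the alternatives, 78 counts stayed within 1.5 times of the value reported and 20 moved further. Most of the 78 were skr counts that stayed at 0. The counts from the strongest peaks of the pooled list could not move, since those peaks are the IDR peaks. The tally is therefore no measure of how stable the other counts are. The count of members with a peak was 14 as reported. It was 4 with a 250 bp window, 8 with 300 bp, 9 when each peak served its nearest gene only, 6 for peaks in the top list of all 3 replicates, and 7 to 10 when 1 replicate was left out. Leaving out a replicate kept the IDR peaks found in the top list of each remaining replicate. It was a stricter filter on the same IDR list and not a new IDR call. The share of all genes moved too. It was 17.3% of members against 9.05% of all genes for the nearest gene only, 11.5% against 5.99% in all 3 top lists, and 13.5 to 19.2% against 6.28 to 7.58% without a replicate, but 7.69% against 7.71% at 250 bp. For the 10 E1 and E2 genes these counts were 2, 6, 5 and 5 in the same settings and 5 to 8 when 1 replicate was left out. For the 4 cullin and RBX genes the count was 2 with either narrower window, 1 for peaks in all 3 top lists, 2 in replicate 3 alone, and 1 to 3 when 1 replicate was left out. Without replicate 1 the peaks lost to this filter were at cul-1, cul-3, rbx-1, uba-2 and ubc-19. Without replicate 2 they were at cul-3, rbx-1, uba-2, ubc-3, ubc-12, ubc-19 and ubc-25, and without replicate 3 at cul-1, ubc-3, ubc-12 and ubc-25. Each lost peak was outside the top list of a replicate that was kept. A loss therefore does not show that the peak depended on the replicate left out. The skr count of 0 became 1 in replicate 3 alone, as did that of skr-1, skr-2 and the solitary skr genes. CHR matches numbered 8 of 14 within 100 bp of the summit, against 55.2% of all IDR peaks at 5' ends. With 1000 bp, or with the 5' end of any transcript, uba-5 was added. The other counts and alternatives run stayed within 1.5 times, and the causes of the changes were not tested. Precision is limited by 3 replicates, by an unknown read depth and by the small families, of 2 rbx and 3 uba genes. No paired analysis was possible because all samples belong to 1 group.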
